A study of Mus musculus with 8 samples.

Results

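WNT signalling genes were followed through the differentiation of mouse embryonic stem cells (mESCs) with and without Hira, the gene of a chaperone that loads the histone variant H3.3 onto chromatin outside DNA replication. The genes are all rows whose symbol is Wnt, Fzd, Sfrp, Dkk or Rspo followed by a number and, where present, the letter a or b, together with Wif1, Frzb, Lrp5, Lrp6, Axin2, Lef1 and Tcf7. They number 48 of the 24421 genes in the expression table: 19 WNT ligands, 12 Frizzled and LRP receptors, 10 secreted antagonists, 4 R-spondins and 3 nuclear effectors or targets. They were matched by name, and no expression value entered the match, though the set was put together with earlier results of these data known. Messenger RNA was sequenced in 8 libraries, 2 in each of 4 groups: WT (the W9.5 line) at day 0, Hira-null (Clone104) at day 0, and each line at day 15. All groups carry HA-tagged H3.3, and all Hira-null libraries come from a single clone, so a trait of that clone and the loss of Hira cannot be told apart. Day 0 cells were undifferentiated and kept with LIF, while day 15 cells had been grown as hanging drops and then as embryoid bodies until they held beating areas, and their labels name them differentiated cardiomyocytes. No sort preceded RNA extraction, so in these bulk cultures more cells of a type and more mRNA per cell cannot be told apart.

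WNT proteins are lipid-modified secreted ligands that bind Frizzled receptors together with the co-receptors Lrp5 or Lrp6. In the canonical branch this stops the destruction of beta-catenin, which then joins Tcf and Lef factors on DNA and switches on targets such as Axin2, while other branches act on cell polarity and movement without beta-catenin. Secreted antagonists either capture the ligand (the Sfrp proteins, Frzb and Wif1) or block the co-receptor (Dkk1 and Dkk2), and R-spondins raise receptor levels at the cell surface by restraining the ubiquitin ligases Rnf43 and Znrf3. During heart formation canonical signalling is known to promote early mesoderm and later to hold back cardiac specification, and the same ligands pattern the brain and neural crest.

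Since Tcf and Lef factors act at short DNA sites, the promoters of the genes were searched for such letters, and those that held them are shown. RefSeq start sites on GRCm38.p6 matched 32 of the 48 genes, with 39 windows of 250 bases before to 50 bases after the start. The letters CTTTGAA or CTTTGAT were looked for on both strands, and as they differ in the last letter a site counts under one of them. A match stood in 3 of the 39 windows (7.69%), beside 2842 of 32851 windows of all genes (8.65%). Median GC content was 67.3% in the WNT gene windows and 52.7% in all windows. The matches were in Wnt5b, Wnt11 and Dkk1, starting 71, 51 and 117 bases before the start of their window. Wnt5b and Wnt11 have other start sites too, and the windows of those did not hold the letters. For Axin2, the usual readout of the pathway, the letters were absent as well. The 250 bases before the start in these windows are printed for the 3 genes with a match and for Axin2. They read 5′ to 3′ on the strand of the gene with the match in capitals, at chr6:119449387-119449636 for Wnt5b (minus strand), chr7:98834862-98835111 for Wnt11 (plus), chr19:30549497-30549746 for Dkk1 (minus) and chr11:108920099-108920348 for Axin2 (plus). A match of letters is a description and does not show binding.
Wnt5b: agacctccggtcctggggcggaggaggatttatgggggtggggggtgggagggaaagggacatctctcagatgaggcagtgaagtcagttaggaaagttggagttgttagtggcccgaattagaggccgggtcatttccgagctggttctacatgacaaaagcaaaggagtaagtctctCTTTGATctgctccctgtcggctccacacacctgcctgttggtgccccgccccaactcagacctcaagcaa
Wnt11: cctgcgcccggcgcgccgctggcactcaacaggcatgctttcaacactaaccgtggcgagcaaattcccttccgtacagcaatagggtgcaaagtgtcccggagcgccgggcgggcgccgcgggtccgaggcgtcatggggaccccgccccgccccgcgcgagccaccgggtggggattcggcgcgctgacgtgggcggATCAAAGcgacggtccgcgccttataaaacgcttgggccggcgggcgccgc
Dkk1: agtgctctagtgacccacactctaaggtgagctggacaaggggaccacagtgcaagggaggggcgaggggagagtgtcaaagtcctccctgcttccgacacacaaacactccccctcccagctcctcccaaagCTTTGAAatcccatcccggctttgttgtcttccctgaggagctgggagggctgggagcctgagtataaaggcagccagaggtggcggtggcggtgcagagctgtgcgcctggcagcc
Axin2: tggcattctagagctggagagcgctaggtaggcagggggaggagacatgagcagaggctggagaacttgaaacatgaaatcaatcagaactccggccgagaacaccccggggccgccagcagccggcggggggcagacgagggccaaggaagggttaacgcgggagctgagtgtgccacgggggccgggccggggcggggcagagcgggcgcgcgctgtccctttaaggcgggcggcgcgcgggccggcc

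Values are FPKM, fragments scaled by gene length and library size, so levels can be compared between genes as far as the lengths used are right. The annotated exon length was set against the length behind the FPKM, scaled to the median of the genes looked up. That ratio was 3.52 for Wnt16, 2.2 for Lef1, 2.16 for Sfrp4, 1.68 for Wnt5a and 0.31 for Fzd3, beside 0.94 for Fzd2. Rankings, shares and sums over genes are thus approximate. Fold changes (log2 FC) are differences in log2(FPKM + 1) from limma with their standard error (SE), a scale that understates changes of low genes. The p-values were adjusted by Benjamini-Hochberg over all 14337 genes that reached FPKM 1 in 2 or more libraries. A gene was called at an adjusted p below 0.05. Whether the groups of 2 libraries overlap is given as a description. The share of all genes without overlap was not taken, so a lack of overlap adds no evidence to a call. Counts by voom come from a second limma fit, of the fragments recovered from the steps of the FPKM values, which was added after the data had been seen. Of the 48 WNT genes 42 passed that filter, and Wnt2b, Wnt3a, Wnt9b, Wnt10a, Wnt10b and Dkk4 did not. Wnt5a, Wnt7b, Wnt11, Sfrp2 and Axin2 share 38 to 364 exon bases with a gene on the opposite strand, and whether counting used the strand is not stated in the sources, so their values are uncertain to that extent. The libraries hold 6897009 to 11088583 fragments, and same-group replicates were farther apart than counting noise (chi-square per degree of freedom 2.91 to 6.14). Hira read 27.3 and 28.5 FPKM in WT and 12.4 and 11.4 FPKM in Hira-null at day 0 (log2 FC −1.17 ± 0.10 SE, adjusted p = 8.48e-05). At day 15 it read 15.8 and 15.5 FPKM in WT and 16.7 and 19.8 FPKM in the libraries labelled Hira-null (log2 FC 0.2 ± 0.11 SE, adjusted p = 0.167), and without Hira-null day 15 replicate 1 (adjusted p of 0.0497) it was called higher there. The day 15 labels were thus not matched by a lower Hira level, so these are called the libraries labelled Hira-null, and every day 15 direction below, as every change with time in Hira-null, rests on those labels. Gata4 and Gata6, endoderm and heart factors picked after their values were seen, were lower under the Hira-null label on both days. Gata4 read 15.7 and 15.8 FPKM in WT and 1.93 and 1.64 FPKM in Hira-null at day 0, and 23.1 and 20.5 FPKM against 2.94 and 3.65 FPKM at day 15 (log2 FC −2.41 ± 0.14 SE, adjusted p = 1.56e-05). Gata6 read 10.6 and 10.4 FPKM against 1.37 and 1.85 FPKM at day 0, and 28.05 and 23.5 FPKM against 3.79 and 2.76 FPKM at day 15 (log2 FC −2.65 ± 0.17 SE, adjusted p = 2.82e-05).

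More of the WNT genes, and of the ligands among them, reached FPKM 1 in day 15 cultures than in undifferentiated cells. The same share over all genes was not taken, so these counts do not set the WNT genes apart. At FPKM 1 or more in both libraries stood 25 of the 48 genes in WT at day 0, 25 in Hira-null at day 0, 38 in WT at day 15 and 37 in the libraries labelled Hira-null at day 15. For the 19 ligands these counts were 4, 4, 11 and 11. At day 0 a nuclear factor and a receptor had the highest levels in WT. Tcf7, which binds DNA at WNT targets, read 35.6 and 36.6 FPKM in WT and 46.1 and 37.8 FPKM in Hira-null. Fzd5, a receptor known from the yolk sac and the eye, read 35.04 and 38.4 FPKM in WT against 30.05 and 29.3 FPKM. Among ligands Wnt7b led at day 0, with 39.8% and 40.0% of summed ligand FPKM in the WT libraries and 43.9% and 50.1% in Hira-null. At day 15 Wnt5a, a ligand of the branch without beta-catenin, took 36.1% and 36.2% in WT and 24.2% and 25.5% in the libraries labelled Hira-null, where Wnt7b came second with 15.5% and 16.3%.

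**Figure D1:**
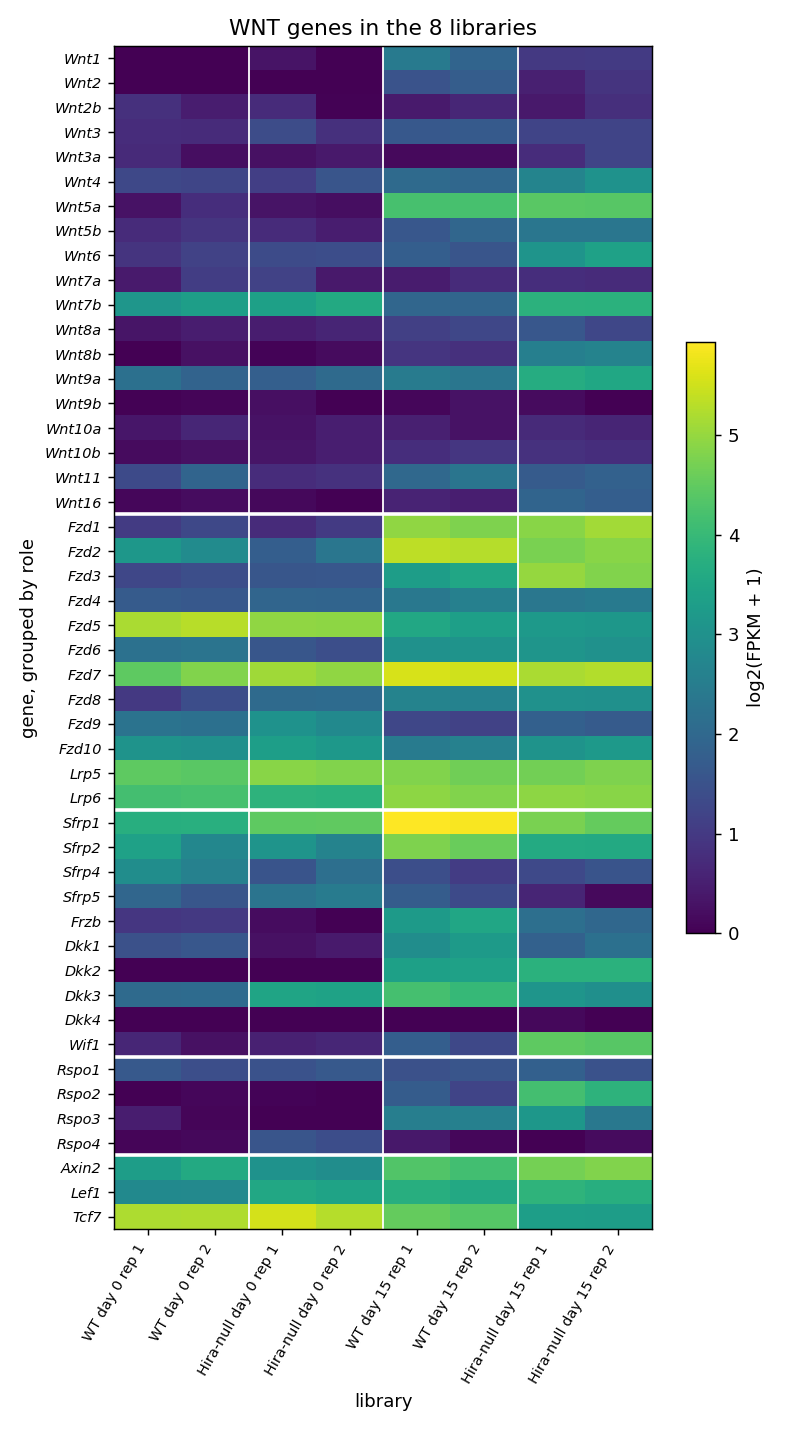
Level of each of the 48 WNT genes (rows, grouped by role) in each of the 8 libraries (columns), as log2(FPKM + 1) in colour. Most rows are brighter in the 4 day 15 libraries, and Wif1, Rspo2 and Wnt8b are brightest in the 2 day 15 libraries labelled Hira-null.

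Between day 0 and day 15 in WT, 29 of the 42 tested WNT genes rose and 6 fell, where 36.1% of all genes tested rose and 33.4% fell. The median difference in log2(FPKM + 1) was 0.80 for the WNT genes and 0.03 for all genes. In Hira-null 28 rose and 6 fell (37.5% and 36.4% of all genes), with a median of 0.92 beside 0.01. Of the 42, 12 genes reached FPKM 1 only in day 15 libraries (Wnt1, Wnt2, Wnt5a, Wnt5b, Wnt8a, Wnt8b, Wnt16, Frzb, Dkk2, Wif1, Rspo2 and Rspo3) and 2 only in day 0 libraries (Wnt7a and Rspo4), so the filter let these in through the day on which they were high. Among the other 28 genes 18 rose and 6 fell in WT, and 16 rose and 5 fell in Hira-null. Comparisons with time share libraries with those between genotypes. In WT 9 of 14 tested ligands rose and Wnt7b fell, and in Hira-null 12 rose and 0 fell by limma, 0 also at an unadjusted p under 0.05 and by voom. Leaving out the 8 ligands that reached FPKM 1 on only 1 day, 3 of 6 rose and 1 fell in WT. In Hira-null 5 of these 6 rose and 0 fell. Of 12 receptors 9 rose and 3 fell in WT, and 7 rose and 2 fell in Hira-null. Of 9 tested antagonists 7 rose in WT and Sfrp4 fell, while in Hira-null 5 rose and Sfrp5 and Dkk3 fell. Without Frzb, Dkk2 and Wif1, let in through day 15, 4 of 6 rose and 1 fell in WT. In Hira-null 2 of these 6 rose and 2 fell.

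Wnt5a, named after its values were seen, was barely detected at day 0, with 0.217 and 0.704 FPKM in WT and 0.233 and 0.156 FPKM in Hira-null. At day 15 it read 17.5 and 17.5 FPKM in WT against 20.4 and 20.2 FPKM, far above every day 0 library. It rose in WT (log2 FC 3.68 ± 0.18 SE, adjusted p = 3.90e-07) and in Hira-null (log2 FC 4.16 ± 0.18 SE, adjusted p = 1.30e-07). The genotype difference at day 15 was small beside this rise (log2 FC 0.2 ± 0.18 SE, adjusted p = 0.41). Fzd1, a receptor also named after its values were seen, rose from 1.06 and 1.43 FPKM to 29.8 and 26.6 FPKM in WT and from 0.665 and 1.01 FPKM to 28.2 and 33.3 FPKM in Hira-null, with no overlap between days (log2 FC 3.7 ± 0.16 SE, adjusted p = 2.34e-07 in WT). Fzd5 moved the other way, to 10.8 and 9.12 FPKM at day 15 in WT (log2 FC −1.78 ± 0.10 SE, adjusted p = 1.17e-06). It also fell in Hira-null, to 8.08 and 7.86 FPKM (log2 FC −1.77 ± 0.10 SE, adjusted p = 7.72e-07). Dkk2, an antagonist that binds Lrp5 and Lrp6, and Wnt2, a ligand made by heart and lung mesenchyme, were listed at 0 in all 4 day 0 libraries and were detected in every day 15 library.

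At day 0 the shares of WNT genes that differed between the genotypes were close to those of all genes. Of 42 tested, 8 were higher and 9 lower in Hira-null, where 20.8% of all genes tested were higher and 19.4% lower, and the median fold was 0.04 on the log2 scale beside 0.01 for all genes. Among ligands 0 were called higher by limma, also at an unadjusted p under 0.05 and by voom, and 1, Wnt11, was lower. Among receptors 4 were higher and 4 lower, and among antagonists 2 were higher and 3 lower. The counts depend on single libraries: without Hira-null day 0 replicate 1 the higher count was 5, and without Hira-null day 0 replicate 2 the lower count was 5. With only the 4 day 0 libraries in the fit the lower count was 5 as well. In that fit Wnt11, Fzd2, Sfrp4 and Axin2 were not called (adjusted p = 0.0719, 0.0683, 0.0939 and 0.0859). Nor was Fzd7, among the genes higher in the main fit (adjusted p = 0.134). Shares of all genes called in these smaller fits are not given here, so the smaller counts do not set the WNT genes apart.

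Wnt11, a polarity ligand with a known part in heart development, read 1.54 and 2.79 FPKM in WT and 0.686 and 0.786 FPKM in Hira-null at day 0. Both Hira-null libraries were below both of WT (log2 FC −0.84 ± 0.21 SE, adjusted p = 0.0131), but the call was lost without WT day 0 replicate 2 (adjusted p of 0.0632), Hira-null day 0 replicate 1 (0.0732) or Hira-null day 0 replicate 2 (0.053). Fzd8, a canonical receptor, went from 0.975 and 1.63 FPKM in WT to 3.13 and 3.197 FPKM in Hira-null, without overlap (log2 FC 0.87 ± 0.16 SE, adjusted p = 0.00313). Fzd9, a receptor known from the hippocampus, stood at 3.799 and 3.59 FPKM in WT and 7.11 and 6.04 FPKM in Hira-null (log2 FC 0.69 ± 0.15 SE, adjusted p = 0.00602), and was not called without Hira-null day 0 replicate 1 (adjusted p of 0.0566). These were the receptors with the larger increases. In the other direction Fzd2, a receptor of embryonic mesenchyme, read 7.75 and 6.33 FPKM in WT and 2.41 and 4.05 FPKM in Hira-null (log2 FC −0.95 ± 0.18 SE, adjusted p = 0.0033). It did not pass in the fit of the 4 day 0 libraries alone (adjusted p = 0.0683). Fzd6, which orients hairs and epithelial cells, read 3.64 and 3.89 FPKM in WT against 2.01 and 1.71 FPKM with no overlap (log2 FC −0.74 ± 0.13 SE, adjusted p = 0.00247).

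The other 4 receptor calls at day 0 were small, between 0.30 and 0.40 in size on the log2 scale. Fzd7, a receptor that mESCs use for self-renewal, was higher (log2 FC 0.38 ± 0.12 SE, adjusted p = 0.0286), a call lost without WT day 0 replicate 1 (adjusted p of 0.154), Hira-null day 0 replicate 1 (0.17), Hira-null day 0 replicate 2 (0.0601), WT day 15 replicate 1 (0.0512) or WT day 15 replicate 2 (0.0511). Lrp5 was higher too (log2 FC 0.4 ± 0.09 SE, adjusted p = 0.00806), except without Hira-null day 0 replicate 1 (adjusted p of 0.0684). Its partner co-receptor Lrp6 was lower (log2 FC −0.37 ± 0.08 SE, adjusted p = 0.00779), except without Hira-null day 0 replicate 2 (adjusted p of 0.0571). Fzd5 was lower at an adjusted p of 0.0472, which was lost without WT day 0 replicate 1 (adjusted p of 0.0564), WT day 0 replicate 2 (0.187), Hira-null day 0 replicate 1 (0.149), Hira-null day 0 replicate 2 (0.193), Hira-null day 15 replicate 1 (0.0624) or Hira-null day 15 replicate 2 (0.0622). Summed over the 12 receptors the level was 126 ± 5.91 FPKM in WT and 131 ± 4.24 FPKM in Hira-null at day 0 (mean ± SD, n = 2), so the sums overlapped.

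Antagonists moved both ways at day 0. Dkk3, a divergent Dickkopf member, read 3.16 and 3.21 FPKM in WT and 10.1 and 9.66 FPKM in Hira-null, a level 3.1-fold higher (log2 FC 1.38 ± 0.12 SE, adjusted p = 8.63e-05). Sfrp1, which binds WNT ligands, went from 12.3 and 12.4 FPKM to 21.01 and 21.3 FPKM, with no overlap (log2 FC 0.73 ± 0.09 SE, adjusted p = 3.94e-04). Dkk1, which blocks Lrp5 and Lrp6, was the opposite case, at 1.76 and 2.06 FPKM in WT and 0.195 and 0.356 FPKM in Hira-null (log2 FC −1.19 ± 0.18 SE, adjusted p = 0.0012). Frzb, a ligand-binding antagonist, read 0.931 and 0.973 FPKM in WT and 0.1496 and 0 FPKM in Hira-null, with both Hira-null libraries below both of WT (log2 FC −0.86 ± 0.16 SE, adjusted p = 0.00348). Sfrp4 read 6.49 and 5.05 FPKM in WT against 1.905 and 3.496 FPKM and was lower in both Hira-null libraries (log2 FC −0.9 ± 0.24 SE, adjusted p = 0.0166), but not called without WT day 0 replicate 1 (adjusted p of 0.0812) or Hira-null day 0 replicate 1 (0.129). Of the R-spondins Rspo4, known for its part in nail growth, read 0.0573 and 0.0998 FPKM in WT and 1.96 and 1.63 FPKM in Hira-null (log2 FC 1.37 ± 0.18 SE, adjusted p = 5.05e-04), and at day 15 it was low in all 4 libraries, at most 0.31 FPKM. It reached FPKM 1 only in Hira-null at day 0 and entered the test through that group.

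At day 15 most ligands that were called were higher in the libraries labelled Hira-null, and most secreted antagonists that were called were lower. Of 42 tested WNT genes 14 were higher and 9 lower, beside 18.6% and 18.8% of all genes tested, with a median fold of 0.13 on the log2 scale beside 0.01. With a fold change of 2 required as well, 8 were higher and 8 lower, beside 4.78% and 4.08% of all genes. By role, 7 of 14 ligands, 3 of 12 receptors, 2 of 9 antagonists, 1 of 4 R-spondins and 1 of 3 nuclear genes were higher, and 2 ligands, no receptor, 6 antagonists, no R-spondin and 1 nuclear gene were lower. Wnt8b and Wnt16 reached FPKM 1 only in the day 15 libraries labelled Hira-null and Wnt2 only in WT at day 15, so each entered the test through the group in which it was higher. Without these 3 the ligands numbered 5 higher and 1 lower of 11. At an unadjusted p under 0.05 limma gave 3 receptors and 0 R-spondins lower, and the voom fit called 3 and 0. The median was 0.40 for the ligands and −1.06 for the antagonists. The number called higher fell without either WT day 15 library. Shares of all genes called in those fits are not given here, so the fall does not set the WNT genes apart.

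**Figure D2:**
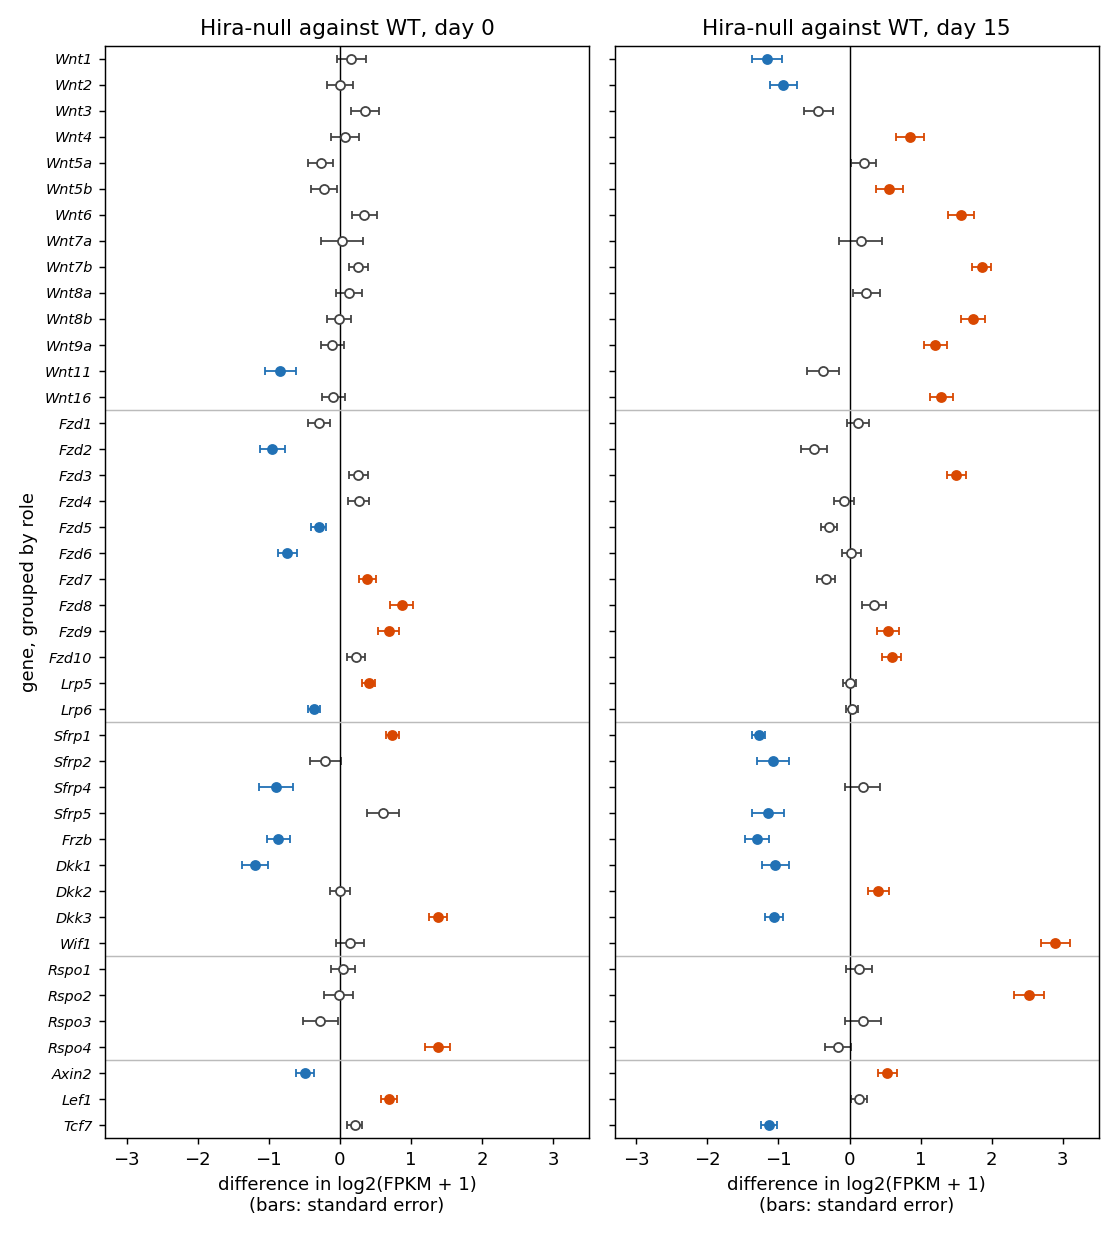
Difference between Hira-null and WT libraries in log2(FPKM + 1) for the 42 tested WNT genes (rows, grouped by role), at day 0 (left) and day 15 (right). Points are limma estimates and bars standard errors, and filled points passed an adjusted p of 0.05 (red higher, blue lower). At day 15, 7 ligands lie filled on the right and 6 antagonists filled on the left.

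Wnt7b, a canonical ligand known from lung and from the vessels of the brain, had the largest day 15 difference among the tested ligands on the log2(FPKM + 1) scale, while the ratios of mean FPKM were larger for the less abundant Wnt8b and Wnt16. It read 2.91 and 2.803 FPKM in WT and 13.1 and 12.9 FPKM in the libraries labelled Hira-null, 4.55-fold higher (log2 FC 1.86 ± 0.13 SE, adjusted p = 5.08e-05). In WT Wnt7b had fallen since day 0, from 7.66 and 9.01 FPKM (log2 FC −1.27 ± 0.13 SE, adjusted p = 3.35e-05), while in Hira-null it moved from 9.298 and 11.1 FPKM to its slightly higher day 15 level (log2 FC 0.33 ± 0.13 SE, adjusted p = 0.0497). The gene lies at chr15:85365869-85412251 of NCBIM37 and shares 38 exon bases with AU022754 on the other strand. Wnt8b, a ligand of the developing forebrain, read 0.8803 and 0.758 FPKM in WT and 4.89 and 5.26 FPKM in the other libraries, 6.19-fold higher (log2 FC 1.74 ± 0.17 SE, adjusted p = 1.65e-04). These levels rest on 28 and 30 fragments in WT and 147 and 169 in the libraries labelled Hira-null. Wnt6, an epithelial ligand, read 2.41 and 1.94 FPKM in WT against 7.44 and 9.5 FPKM, 3.89-fold higher (log2 FC 1.57 ± 0.18 SE, adjusted p = 3.42e-04). The groups did not overlap in these 3 genes, which are named because they were called.

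Wnt16, a ligand known for its part in bone, read 0.5097 and 0.4098 FPKM in WT and 2.76 and 2.396 FPKM in the libraries labelled Hira-null (log2 FC 1.29 ± 0.16 SE, adjusted p = 5.25e-04). Its counts were low, 8 and 8 fragments in WT against 41 and 38. Wnt9a, which takes part in joint formation, read 4.54 and 3.99 FPKM against 11.7 and 10.6 FPKM, 2.61-fold higher and without overlap (log2 FC 1.21 ± 0.17 SE, adjusted p = 7.82e-04). Wnt4, a ligand of kidney and ovary development, read 3.14 and 2.92 FPKM in WT and 5.43 and 7.17 FPKM (log2 FC 0.85 ± 0.20 SE, adjusted p = 0.0106), and was not called without WT day 15 replicate 1 (adjusted p of 0.083), WT day 15 replicate 2 (0.104) or Hira-null day 15 replicate 2 (0.0574). Wnt5b, a close relative of Wnt5a, read 2.04 and 2.86 FPKM in WT against 4.06 and 4.04 FPKM. The groups did not overlap, yet the call was near the threshold (log2 FC 0.56 ± 0.19 SE, adjusted p = 0.0432) and was lost without WT day 0 replicate 1 (adjusted p of 0.0508), WT day 0 replicate 2 (0.0511), WT day 15 replicate 1 (0.285), WT day 15 replicate 2 (0.0711), Hira-null day 15 replicate 1 (0.101) or Hira-null day 15 replicate 2 (0.101).

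A pair of ligands went the other way. Wnt1, which marks and maintains the midbrain-hindbrain boundary, read 4.34 and 2.74 FPKM in WT and 0.994 and 1.02 FPKM in the libraries labelled Hira-null, 3.52-fold lower (log2 FC −1.15 ± 0.21 SE, adjusted p = 0.00325). These values come from 97 and 76 fragments in WT against 21 and 23, and with a pseudocount of 0.1 the adjusted p was 0.0579. Wnt2 read 1.86 and 2.34 FPKM in WT and 0.425 and 0.844 FPKM, 3.31-fold lower and without overlap (log2 FC −0.93 ± 0.19 SE, adjusted p = 0.00508). The 5 tested ligands that were not called were Wnt3, Wnt5a, Wnt7a, Wnt8a and Wnt11, with differences from −0.44 to 0.24. Wnt3, needed for the primitive streak, had the lowest of these (log2 FC −0.44 ± 0.20 SE, adjusted p = 0.122). Summed over the 19 ligands the level was 48.5 ± 0.0551 FPKM in WT and 81.6 ± 2.21 FPKM in the libraries labelled Hira-null (mean ± SD, n = 2), and at day 0 it had been 20.9 ± 2.45 and 21.7 ± 0.649 FPKM.

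**Figure D3:**
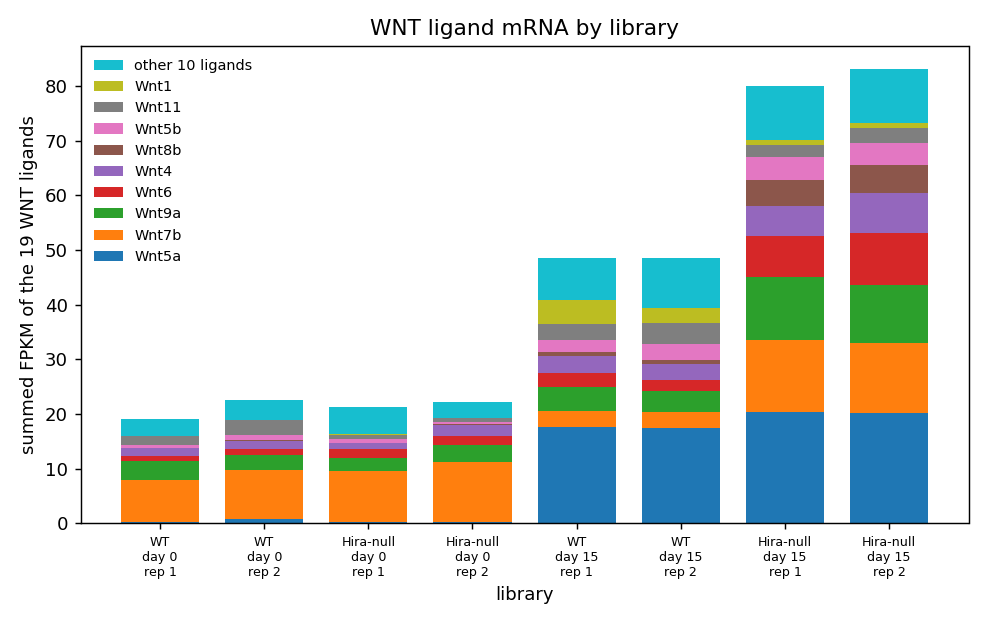
Summed FPKM of the 19 WNT ligands in each of the 8 libraries (horizontal axis), stacked by gene. Day 0 columns reach 19.1 to 22.6, WT day 15 columns 48.5 and 48.5, and day 15 columns labelled Hira-null 80.1 and 83.2 FPKM. Wnt5a is the broadest band in all 4 day 15 columns.

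Several ligand genes are neighbours in the genome, and NCBIM37, the mm9 build, places 4 pairs within 100 kb. Wnt6 and Wnt10a lie on the same strand of chromosome 1 with 6196 bases between them, and the other 3 pairs lie head to head on opposite strands. Wnt3a and Wnt9a are 16175 bases apart on chromosome 11, Wnt9b and Wnt3 24328 bases apart on the same chromosome, and Wnt10b and Wnt1 11706 bases apart on chromosome 15. In 3 of the pairs 1 gene was called at day 15 (Wnt6, Wnt9a, Wnt1) while its neighbour missed the filter, and in the pair of Wnt3 neither was called. Fitted without a filter on low values, Wnt3a, a mesoderm and hippocampus ligand, was higher at day 15 in the libraries labelled Hira-null (log2 FC 0.83, adjusted p = 0.0268), from 3 and 4 fragments in WT and 17 and 35. Wnt10a read 0.22 to 0.63 FPKM and Wnt10b 0.71 to 0.92 FPKM over the 4 day 15 libraries, and neither was called in that fit (adjusted p = 0.247 and 0.828). Of the other genes below the filter, Wnt2b reached at most 0.76 FPKM and Wnt9b at most 0.23 FPKM in any library, and Dkk4 was listed at 0 in 7 of 8.

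Receptors gave 3 calls at day 15. Fzd3, a receptor that guides axon tracts together with the Celsr cadherins, read 8.85 and 10.3 FPKM in WT and 30.8 and 27.3 FPKM in the libraries labelled Hira-null, 3.02-fold higher (log2 FC 1.5 ± 0.14 SE, adjusted p = 1.24e-04). At day 0 it had read 1.42 and 1.68 FPKM in WT against 2.02 and 2.07 FPKM, a difference that did not pass (log2 FC 0.26 ± 0.13 SE, adjusted p = 0.162). Fzd10 read 4.55 and 5.11 FPKM in WT and 7.32 and 8.26 FPKM (log2 FC 0.59 ± 0.13 SE, adjusted p = 0.00772), and was not called without WT day 15 replicate 1 (adjusted p of 0.0879). Fzd9 read 1.41 and 1.25 FPKM in WT against 2.55 and 2.24 FPKM (log2 FC 0.54 ± 0.15 SE, adjusted p = 0.0216), and was not called without WT day 15 replicate 1 (adjusted p of 0.0981), WT day 15 replicate 2 (0.151) or Hira-null day 15 replicate 1 (0.081). The voom fit did not call Fzd9 either (adjusted p = 0.0895). The other 9 receptors had differences from −0.50 to 0.34. The co-receptor groups overlapped, with Lrp5 at 27.2 and 23.9 FPKM in WT and 24.6 and 26.5 FPKM in the libraries labelled Hira-null (95% interval of the difference −0.22 to 0.22). Lrp6 read 29.2 and 27.2 FPKM in WT against 29.4 and 28.4 FPKM (95% interval −0.16 to 0.23). The receptor sum was 209 ± 8.29 FPKM in WT and 214 ± 5.57 FPKM in the libraries labelled Hira-null.

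Among the antagonists Wif1 stood apart. Wif1, a secreted protein that captures WNT ligands, read 2.41 and 1.45 FPKM in WT at day 15 and 21.02 and 19.96 FPKM in the libraries labelled Hira-null, 10.6-fold higher (log2 FC 2.89 ± 0.20 SE, adjusted p = 4.75e-05). That was the largest difference of the 42 genes on the log2(FPKM + 1) scale, from 51 and 38 fragments in WT and 420 and 426, and the gene lies at chr10:120471016-120537706 of NCBIM37. At day 0 it read at most 0.56 FPKM in either genotype. Dkk2 read 9.37 and 9.51 FPKM in WT and 12.9 and 12.8 FPKM in the libraries labelled Hira-null (log2 FC 0.41 ± 0.14 SE, adjusted p = 0.0494), but the call was lost without any 1 of the 8 libraries (adjusted p from 0.0529 to 0.194).

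The other antagonists called at day 15 were lower. Sfrp1 was the most abundant WNT gene in WT at day 15, at 60.1 and 57.5 FPKM, and read 25.5 and 22.04 FPKM in the libraries labelled Hira-null (log2 FC −1.27 ± 0.09 SE, adjusted p = 5.08e-05). It rose with time in WT (log2 FC 2.17 ± 0.09 SE, adjusted p = 2.23e-07), while in Hira-null the change did not pass (log2 FC 0.16 ± 0.09 SE, adjusted p = 0.148). Dkk3 likewise stood at 17.2 and 14.6 FPKM in WT and 7.52 and 6.697 FPKM in the other libraries (log2 FC −1.06 ± 0.13 SE, adjusted p = 3.93e-04). Both genes had been higher in Hira-null at day 0, and both were lower at day 15. Frzb read 8.47 and 10.3 FPKM in WT against 3.46 and 2.95 FPKM, 2.94-fold lower (log2 FC −1.3 ± 0.17 SE, adjusted p = 5.84e-04). Dkk1 read 6.503 and 8.36 FPKM in WT against 2.61 and 3.57 FPKM, 2.4-fold lower (log2 FC −1.04 ± 0.19 SE, adjusted p = 0.00307). Neither overlapped between groups, and both had been lower at day 0 too.

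Sfrp2, a ligand-binding protein of mesenchyme, read 26.8 and 22.7 FPKM in WT and 11.3 and 11.1 FPKM in the libraries labelled Hira-null (log2 FC −1.08 ± 0.22 SE, adjusted p = 0.00602), and was not called without WT day 15 replicate 1 (adjusted p of 0.103) or WT day 15 replicate 2 (0.0594). Sfrp5, which is known from foregut endoderm and fat, read 2.29 and 1.53 FPKM in WT against 0.532 and 0.111 FPKM (log2 FC −1.14 ± 0.23 SE, adjusted p = 0.00492). It rested on 9 and 2 fragments in the latter and was not called without WT day 15 replicate 1 (adjusted p of 0.073). Sfrp4 read 1.69 and 1.07 FPKM in WT against 1.47 and 1.91 FPKM, overlapping (log2 FC 0.18 ± 0.25 SE, adjusted p = 0.591). Summed over the 10 antagonists the level was 131 ± 5.43 FPKM in WT and 83.8 ± 3.72 FPKM in the libraries labelled Hira-null, against 34.6 ± 4.26 and 45.1 ± 0.166 FPKM at day 0 (mean ± SD, n = 2).

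Rspo2, an R-spondin of limb, lung and skeletal muscle junctions, lies at chr15:42852357-43002364 and was at most 0.07 FPKM in any day 0 library. At day 15 it read 2.32 and 1.33 FPKM in WT and 16.9 and 13.2 FPKM in the libraries labelled Hira-null, 8.25-fold higher (log2 FC 2.52 ± 0.21 SE, adjusted p = 8.13e-05). Both of the latter were above both WT libraries, with 503 and 420 fragments against 73 and 52. Rspo3, an R-spondin of blood vessels, also rose with time and read 4.83 and 5.02 FPKM in WT and 7.78 and 4.21 FPKM, groups that overlapped (log2 FC 0.19 ± 0.25 SE, adjusted p = 0.589). It was listed at 0 in both Hira-null libraries at day 0. Rspo1 stayed between 1.68 and 2.51 FPKM in all 8 libraries. The R-spondin sum at day 15 was 8.82 ± 0.622 FPKM in WT and 23.3 ± 5.52 FPKM in the libraries labelled Hira-null.

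**Figure D4:**
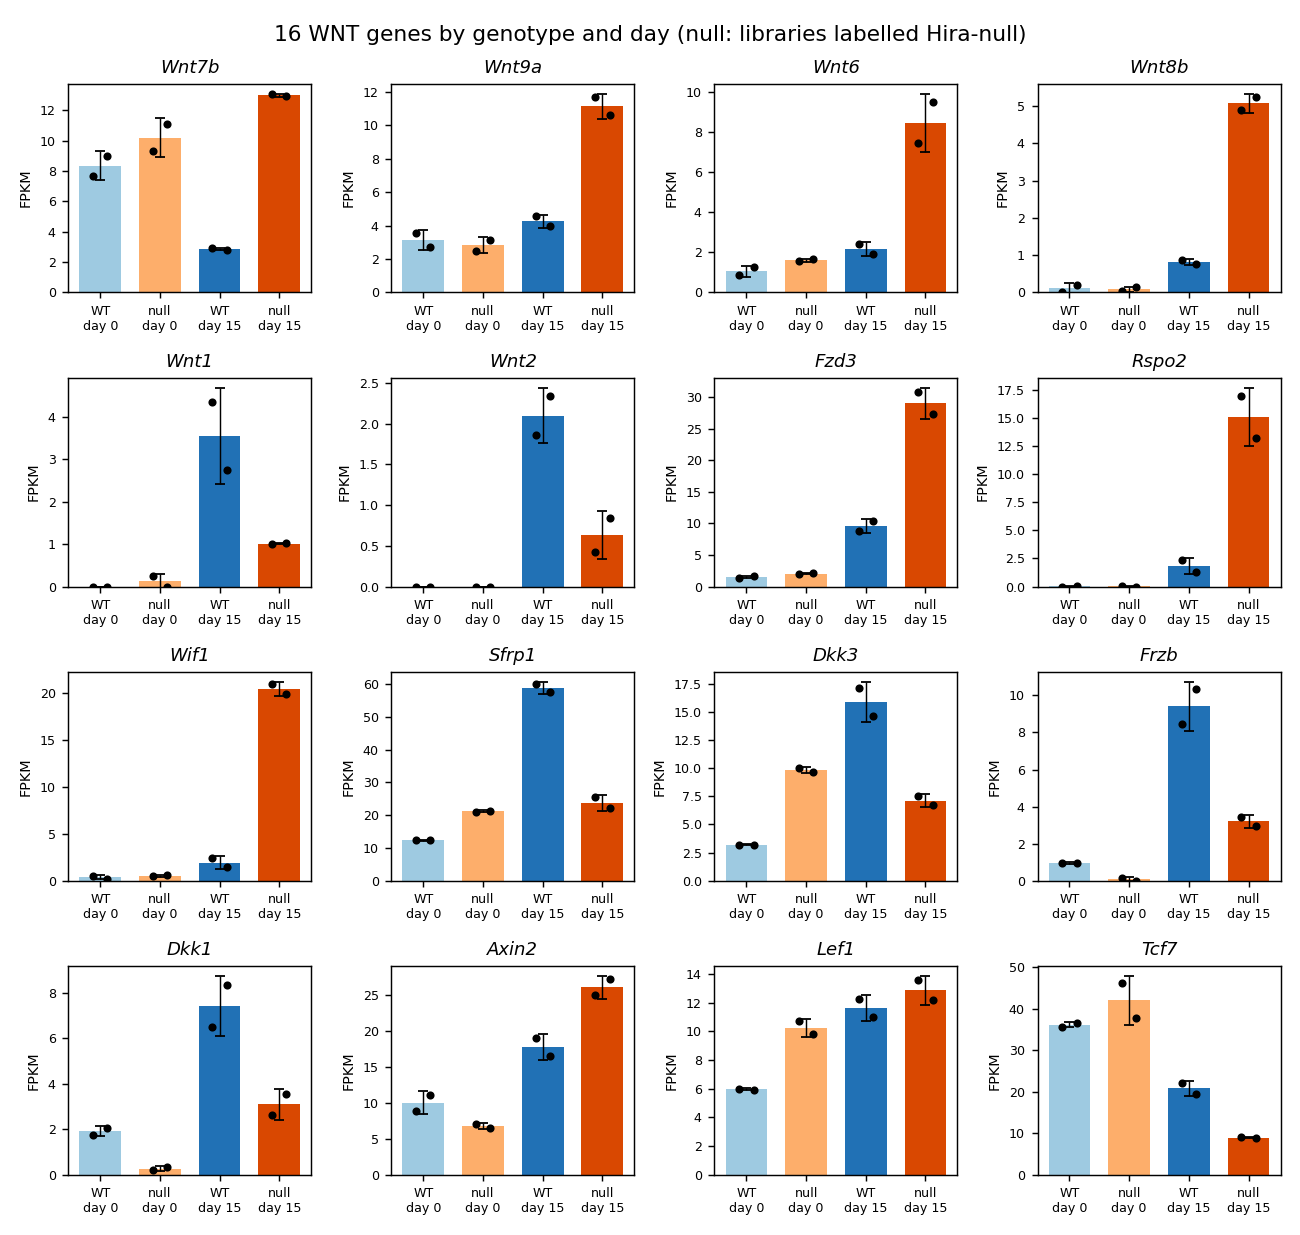
FPKM of 16 WNT genes (panels) in WT and in libraries labelled Hira-null (null) at day 0 and day 15. Columns show means with SD as error bars (n = 2), and dots the individual libraries. Wif1 and Rspo2 are low in 3 groups and high in the day 15 libraries labelled Hira-null, while Sfrp1 and Dkk3 are higher in Hira-null at day 0 and lower at day 15.

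The 3 nuclear genes did not move together. Axin2, a scaffold of the destruction complex that beta-catenin induces in return, read 8.93 and 11.2 FPKM in WT and 7.11 and 6.55 FPKM in Hira-null at day 0 (log2 FC −0.49 ± 0.13 SE, adjusted p = 0.0147), which was lost without WT day 0 replicate 2 (adjusted p of 0.0762) or Hira-null day 0 replicate 2 (0.0911). At day 15 it read 19.05 and 16.5 FPKM in WT and 25.01 and 27.2 FPKM in the libraries labelled Hira-null (log2 FC 0.53 ± 0.13 SE, adjusted p = 0.0129), which was lost without WT day 15 replicate 1 (adjusted p of 0.0599), WT day 15 replicate 2 (0.149) or Hira-null day 15 replicate 2 (0.0591). No library of one genotype overlapped the other on either day. Axin2 shares 209 exon bases with Gm11670 on the opposite strand. Lef1 read 6.01 and 5.94 FPKM in WT against 10.7 and 9.82 FPKM at day 0 (log2 FC 0.69 ± 0.11 SE, adjusted p = 0.00165). At day 15 its groups overlapped, at 12.3 and 10.99 FPKM in WT and 13.6 and 12.2 FPKM (log2 FC 0.14 ± 0.12 SE, adjusted p = 0.396). Tcf7 was higher in both Hira-null libraries at day 0, but the difference did not pass (log2 FC 0.2 ± 0.11 SE, adjusted p = 0.17). By day 15 it had fallen in both genotypes, to 22.01 and 19.5 FPKM in WT and 8.98 and 8.87 FPKM in the libraries labelled Hira-null, 2.33-fold lower in the latter (log2 FC −1.13 ± 0.11 SE, adjusted p = 1.65e-04).

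Whether the genotype difference itself changed between the days was tested with all 8 libraries, the same ones as in the comparisons above, so it is no separate evidence. The difference at day 15 minus that at day 0 was higher for 13 of 42 WNT genes and lower for 10, beside 17.5% and 17.7% of all genes tested, with a median of 0.26 beside 0.02. Wnt2, Wnt8b, Wnt16 and Rspo4 each reached FPKM 1 in 1 group only and entered the test through it. Without these 4, 11 of 38 genes were higher and 8 lower, and of 11 ligands 4 were higher and 1 lower. The voom fit gave 8 higher and 9 lower, and for the ligands alone 3 higher and 0 lower in place of 6 and 2 by limma (7 and 3 at an unadjusted p under 0.05). Shares of all genes called by voom are not given here. The genes with the largest positive values were Wif1 (difference 2.76 ± 0.28 SE, adjusted p = 3.56e-04), Rspo2 (difference 2.54 ± 0.29 SE, adjusted p = 5.65e-04) and Wnt8b (difference 1.76 ± 0.24 SE, adjusted p = 0.00112). At day 0 Wif1, Rspo2 and Wnt8b read at most 0.56, 0.07 and 0.21 FPKM in any library. A day 0 difference could hardly show at such levels, so these values mostly restate the day 15 difference. The largest negative values were those of Dkk3 (difference −2.43 ± 0.18 SE, adjusted p = 8.68e-05), Sfrp1 (difference −2.01 ± 0.13 SE, adjusted p = 7.04e-05) and Sfrp5 (difference −1.75 ± 0.32 SE, adjusted p = 0.00393). Of these, Rspo2 and Wnt8b did not pass in the voom fit (adjusted p = 0.0834 and 0.208), and Wnt8b not with a pseudocount of 0.1 (adjusted p = 0.0505). Axin2 changed direction between the days (difference 1.02 ± 0.18 SE, adjusted p = 0.00368). Dkk1 was lower at both days, and the change between them did not pass (difference 0.15 ± 0.26 SE, adjusted p = 0.696). The test of the change did not pass for Frzb either (difference −0.44 ± 0.24 SE, adjusted p = 0.179). By the ratio of mean FPKM Frzb was 12.7-fold lower at day 0 and 2.94-fold lower at day 15. For Dkk1 these ratios were 6.94 and 2.4. Both genes were low at day 0, where the log2(FPKM + 1) scale understates changes, so how their difference changed depends on the scale.

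A list of 74 other WNT pathway genes, of which 73 were tested, gives the surroundings of these genes. In Hira-null 24 were higher and 11 lower at day 0, and 32 higher and 7 lower at day 15, read against the same shares of all genes as above. The median day 15 difference was 0.24 on the log2 scale. Fewer were called higher at day 15 without either WT day 15 library, and at day 0 without Hira-null day 0 replicate 1. Shares of all genes called in those fits are not given here. Of 11 tested genes of ligand secretion and extracellular control 6 were higher and none lower by limma (by unadjusted p 0, and by voom 0), the largest folds being those of Apcdd1, Tpbg and Sostdc1, 3 membrane or secreted WNT inhibitors. Apcdd1 read 16.2 ± 0.347 FPKM in WT and 48.7 ± 2.55 FPKM in the libraries labelled Hira-null (mean ± SD, n = 2; log2 FC 1.53 ± 0.11 SE, adjusted p = 5.08e-05). Wls, the carrier that brings WNT ligands to the cell surface, was picked outside the order of folds after its values were seen, and read 82.9 ± 0.514 FPKM and 158 ± 10.2 FPKM (log2 FC 0.92 ± 0.10 SE, adjusted p = 2.45e-04). Of the 5 R-spondin receptors and ligases Lgr6 was higher (log2 FC 1.07 ± 0.20 SE, adjusted p = 0.00329).

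Of 20 genes of the destruction complex and signal relay 8 were higher, led by Apc2, Apc and Cxxc4, and 3 were lower, Amer1, Dvl2 and Fbxw11. Ctnnb1, the gene of beta-catenin, was picked in the same way and read 259.6 ± 8.08 FPKM in WT at day 15 and 346 ± 1.37 FPKM in the libraries labelled Hira-null (log2 FC 0.41 ± 0.06 SE, adjusted p = 7.82e-04). Among 10 genes of the nuclear complex 6 were higher, led by the co-repressor Tle2, the beta-catenin partner Bcl9l and Tle1, and none was lower by limma (by unadjusted p 0, and by voom 0). In planar polarity, the branch that orients cells in a sheet, 5 of 13 were higher, with Celsr1, Celsr3 and Celsr2 first, and 2 lower, Daam2 and Ror1. Celsr1, an atypical cadherin, read 6.51 ± 0.0862 FPKM and 30.8 ± 2.92 FPKM (log2 FC 2.08 ± 0.11 SE, adjusted p = 1.50e-05). Of 14 further target genes 6 were higher, led by T, Msx1 and Sp5, and 2 lower, Cdx2 and Ndrg1. The mesoderm factor T read 13.99 ± 0.907 FPKM and 50.7 ± 0.418 FPKM at day 15 (log2 FC 1.79 ± 0.19 SE, adjusted p = 2.49e-04).

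Markers of several cell types differed between the same day 15 libraries, and their counts stand beside 18.6% of all genes tested higher and 18.8% lower. All 11 cardiomyocyte markers rose in WT between day 0 and day 15, and in Hira-null 10 were higher and Myl7 was lower. Between genotypes at day 15, 2 of the 11 were higher (Nppa, Tnnc1), about the share of all genes, and 5 lower, led by Myl7, Myl2 and Actc1, with summed levels of 259 to 264 FPKM in WT and 181 to 187 FPKM in the libraries labelled Hira-null. Of 10 neural progenitor markers 7 were higher (Fabp7, Slc1a3 and Nes first), and the sums were 889 to 949 and 1597 to 1780 FPKM. For 10 neuron markers 9 were higher, led by Syt1, Elavl3 and Map2, with sums of 128 to 130 and 296 to 303 FPKM. The mean neuron marker sums of undifferentiated cells were 223 FPKM in WT and 246 FPKM in Hira-null, above WT at day 15. Stmn2 fell with time in both genotypes, so that sum is no measure of neurons alone. Of 12 tested midbrain-hindbrain and dorsal midline markers 7 were higher, led by Zic1, Lmx1b and En2, with sums of 57.0 to 58.6 and 156 to 172 FPKM. None was lower by limma (by unadjusted p 0, and by voom 1). Pax2 and Pax5 were below FPKM 1 in both libraries labelled Hira-null but not in both WT libraries, and Gdf7 was the reverse. That list holds Msx1, which is also among the target genes. Fgf8, a factor of the midbrain-hindbrain boundary like Wnt1, read 6.75 ± 0.125 FPKM in WT and 3.09 ± 0.086 FPKM in the libraries labelled Hira-null (log2 FC −0.92 ± 0.42 SE, adjusted p = 0.117), and was picked after its values were seen.

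Of 9 fibroblast and mesenchyme markers 8 were lower in the libraries labelled Hira-null (Lum, Col1a2 and Pdgfra first), with sums of 2068 to 2298 FPKM in WT and 698 to 885 FPKM. None was higher by limma (by unadjusted p 0, and by voom 1). Of 12 visceral endoderm markers 10 were lower, led by Afp, Apoa1 and Apob, and Foxa2 was higher, with sums of 178 to 188 and 36.1 to 37.3 FPKM. Already at day 0, 6 of the 12 were lower in Hira-null and 2 higher, beside 19.4% and 20.8% of all genes. The mean day 0 sums were 57.1 FPKM in WT and 13.7 FPKM in Hira-null. Of 7 endothelial markers 5 were lower, led by Cdh5, Sox18 and Pecam1, with sums of 41.5 to 41.8 and 15.4 to 16.8 FPKM. The mean endothelial sums of undifferentiated cells were higher, 65.4 FPKM in WT and 70.3 FPKM in Hira-null, so that sum is no measure of endothelium alone. Pluripotency markers were mixed, 4 of 8 higher (Pou5f1, Dppa5a, Tdgf1 first) and 3 lower (Nanog, Zfp42, Klf4). At day 0, 6 of these 8 were higher in Hira-null and 1 lower, so the undifferentiated cultures differed in markers as well. No marker of these 8 lists was listed at 0 in both libraries of a day 15 group. The part of these markers' cells in the WNT gene differences was not tested.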

How the data were processed

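RNA sequencing libraries were made with a stranded mRNA kit from 8 samples, 2 biological samples in each of 4 groups, so p-values measure the spread between these samples. The authors aligned the reads to mm9 with Bowtie 0.12.2 and deposited 1 table of FPKM for 24421 genes. The counting tool, its annotation and its use of strand are not given in the sources used here. Tables of the authors' own comparisons with DESeq2 1.6.3 hold a mean of normalized counts, a log2 fold change with its standard error, a score and raw and adjusted p-values, and were not used.

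WNT genes were matched by symbol. Groups were compared on log2(FPKM + 1) with limma 3.58.1 in R 4.3.3, over 14337 genes (FPKM 1 or more, 2 libraries or more), as 4 group means with a weight per day (1.03 at day 0, 0.968 at day 15) and an empirical Bayes trend, with 4 residual and 4.70 prior degrees of freedom. Calls used a Benjamini-Hochberg adjusted p of 0.05. The fit was tested on simulated data. FPKM values were whole multiples of a step per gene and library, 100% of those above 0 to within 0.1 fragment, which gave the fragments counted. They may not be independent molecules, so they cover counting error alone.

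Values in every library are given for Axin2, Lef1, Tcf7 and the members called between genotypes at a mean of FPKM 1 or more in some group, up to 30 by fold. Of the other lists up to 3 called genes in each direction are named by fold. Genes named otherwise are said to be so. The members and lists were chosen with earlier results of these data known. Positions come from NCBIM37 for 47 of the 48 genes (Fzd10 has 2 entries), promoters from RefSeq on GRCm38.p6, a different build. Alternatives were another pseudocount, looser filters, no weights, another scaling, fewer libraries, a replicate block, a fold limit and leaving out each library. A voom fit of the recovered fragments was added after seeing the data.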

Additional observations from a re-analysis of the deposited data

Results flagged for a closer look

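For 23 WNT genes and for Hira the difference between the genotypes at day 15 differed from that at day 0 by its own term in limma (adjusted p below 0.05). The values are day 15 minus day 0 on the log2 scale, and the day 15 libraries labelled Hira-null did not show a lower Hira level. Hira itself gave 1.37.

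Among the ligands Wnt8b gave 1.76, Wnt7b 1.6, Wnt16 1.38, Wnt9a 1.32, Wnt6 1.23 and Wnt5b 0.79, while Wnt1 gave −1.31 and Wnt2 −0.93. Of the receptors Fzd3 gave 1.24, Fzd6 0.77 and Lrp6 0.40, and Fzd7 gave −0.71 and Lrp5 −0.40. Of the antagonists Wif1 gave 2.76 and Sfrp4 1.08, and Dkk3 gave −2.43, Sfrp1 −2.01 and Sfrp5 −1.75. The R-spondins Rspo2 and Rspo4 gave 2.54 and −1.53. Axin2 gave 1.02, Lef1 −0.55 and Tcf7 −1.34. Of the genes listed here, Wnt2, Wnt8b, Wnt16 and Rspo4 each reached FPKM 1 in 1 group only and entered the test through it. In the day 0 libraries Wnt1, Wnt2, Wnt8b, Wnt16, Wif1 and Rspo2 read at most 0.25, 0, 0.21, 0.14, 0.56 and 0.07 FPKM. A day 0 difference could hardly show at such levels, so for these genes the term mostly restates the day 15 difference.

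Under every alternative run 11 of the 23 WNT genes passed: Wnt7b, Wnt9a, Wnt16, Fzd3, Sfrp1, Sfrp5, Dkk3, Wif1, Rspo4, Axin2 and Tcf7. Leaving out single libraries ended the call for Wnt2, Wnt5b, Fzd6, Fzd7, Lrp5, Lrp6, Sfrp4 and Lef1. Wnt2 was lost without Hira-null day 0 replicate 1 (adjusted p of 0.0674), Hira-null day 0 replicate 2 (0.0662), WT day 15 replicate 2 (0.0693) or Hira-null day 15 replicate 1 (0.0557). Wnt5b was lost without WT day 0 replicate 2 (adjusted p of 0.1), Hira-null day 0 replicate 1 (0.0536), Hira-null day 0 replicate 2 (0.13), WT day 15 replicate 1 (0.162), WT day 15 replicate 2 (0.0509), Hira-null day 15 replicate 1 (0.0869) or Hira-null day 15 replicate 2 (0.0813). Fzd6 was lost without WT day 15 replicate 1 (adjusted p of 0.0702) or WT day 15 replicate 2 (0.057), and Fzd7 without WT day 15 replicate 1 (adjusted p of 0.0747) or WT day 15 replicate 2 (0.0532). Lrp5 was lost without WT day 0 replicate 1 (adjusted p of 0.0605), WT day 0 replicate 2 (0.0977), Hira-null day 0 replicate 1 (0.131), Hira-null day 0 replicate 2 (0.0846), WT day 15 replicate 1 (0.155) or Hira-null day 15 replicate 1 (0.1), and Lrp6 without WT day 0 replicate 2 (adjusted p of 0.0704), Hira-null day 0 replicate 1 (0.071), Hira-null day 0 replicate 2 (0.0894), WT day 15 replicate 1 (0.062), WT day 15 replicate 2 (0.107) or Hira-null day 15 replicate 1 (0.0648). Sfrp4 was lost without WT day 0 replicate 1 (adjusted p of 0.102), Hira-null day 0 replicate 1 (0.116), WT day 15 replicate 1 (0.0803), WT day 15 replicate 2 (0.173), Hira-null day 15 replicate 1 (0.0559) or Hira-null day 15 replicate 2 (0.101). Lef1 was lost without WT day 0 replicate 2 (adjusted p of 0.0542), Hira-null day 0 replicate 1 (0.0946), Hira-null day 0 replicate 2 (0.0512), WT day 15 replicate 1 (0.121), WT day 15 replicate 2 (0.0585) or Hira-null day 15 replicate 2 (0.0761). Wnt1, Wnt2, Wnt5b, Wnt6, Wnt8b, Sfrp4 and Rspo2 lost the call in the voom fit (adjusted p = 0.101, 0.38, 0.155, 0.0938, 0.208, 0.0862 and 0.0834). With a pseudocount of 0.1 in limma, Wnt1, Wnt2, Wnt5b, Wnt8b and Sfrp4 lost it (adjusted p = 0.0521, 0.121, 0.0785, 0.0505 and 0.0608).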

How the results depend on the processing

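Of the calls for single WNT genes, 8 of 17 between genotypes at day 0 and 14 of 23 at day 15 passed under all 16 alternatives, and no direction reversed. Those at day 0 were Fzd6, Fzd8, Sfrp1, Frzb, Dkk1, Dkk3, Rspo4 and Lef1, and those at day 15 Wnt2, Wnt6, Wnt7b, Wnt8b, Wnt9a, Wnt16, Fzd3, Sfrp1, Frzb, Dkk1, Dkk3, Wif1, Rspo2 and Tcf7. Of these, Rspo4 at day 0 and Wnt2, Wnt8b and Wnt16 at day 15 entered the test through the group in which they were higher. The leave-out fits kept the filter of all 8 libraries, so that entry was not tested again. The fold limit of 2 was not among the 16. Fzd6, Fzd8, Sfrp1, Frzb and Lef1 at day 0 and Wnt2 at day 15 did not reach it. With 2 libraries per group, leaving 1 out assumes that the remaining one varies like the other groups, and calls close to the threshold depend on it. Genes under about FPKM 1 rest on few fragments, and the fold changes of such genes are understated.

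Leaving out each library gave 5 to 8 WNT genes higher (8 with all) and 5 to 9 lower (9) at day 0, 8 to 13 higher (14) at day 15, and for the other pathway genes 14 to 23 higher (24) at day 0 and 17 to 31 higher (32) at day 15. With a fold change of 2 required as well, 2 WNT genes were higher and 1 lower at day 0, 8 were higher at day 15, 16 rose with time in WT, and for 6 the genotype effect was lower at day 15 than at day 0. For the other pathway genes that limit left 4 higher and 2 lower at day 0, and 12 higher and 3 lower at day 15. With only the day 0 libraries 5 WNT genes were lower. In the voom fit the genotype effect was higher at day 15 for 8 WNT genes in place of 13. The cause was not tested beyond the smaller number of libraries or the added limit itself. Apart from the fold limit at day 15, the share of all genes called under these settings is not given here. These counts therefore do not set the WNT genes apart.

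Replicate numbers were not taken to pair the libraries, since deviations from the group means correlated between same-numbered libraries at −0.0967 to 0.0455 over genes. With the replicate number as a block, WNT genes higher and lower in Hira-null numbered 9 and 8 at day 0 and 12 and 9 at day 15, those higher and lower with time 30 and 6 in WT and 27 and 6 in Hira-null, and those with a changed genotype effect 11 and 10. For the other pathway genes the block gave 23 and 12 at day 0 and 28 and 7 at day 15. Shares of all genes called with the block are not given here.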
